A study of Mus musculus with 21 samples.

Results

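The neurofilament genes Nefl, Nefm, Nefh, Ina and Prph were followed in forebrain RNA from 21 mice. They were chosen by symbol and matched to Ensembl mouse gene identifiers, and all 5 were found among the 55401 genes of the count table and in the FPKM table. Mice without the tau transgene, called parental here (E2H, E3H or E4H, n = 3 each), are on a C57BL6 background, carry human APOE2, APOE3 or APOE4 in place of both mouse Apoe alleles, and were 9 to 10 months old when they were killed. The bigenic groups PS/E2H, PS/E3H, PS/E4H (n = 4 mice each) have the same homozygous human APOE and also carry, as heterozygotes, the human P301S tau transgene of line PS19, which was kept on a B6/C3H background and then crossed to the APOE lines. These bigenic mice were killed when their hindlimbs were paralyzed, so tau genotype, paralysis, age at death and C3H-derived background cannot be told apart. The E4H, PS/E2H and PS/E4H groups held both sexes, the labels do not give the sex of single mice, and its part was not tested. The comparisons ask whether end-stage tauopathy, or the APOE genotype, changed the neurofilament transcripts.

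Neurofilaments are the intermediate filaments of neurons and set the calibre of large myelinated axons. Nefl encodes the light subunit, on which the filament is built, while Nefm and Nefh encode the medium and heavy subunits, whose long tails are phosphorylated and project from the filament core. Ina encodes alpha-internexin, the fourth subunit of mature central neurons, and Prph encodes peripherin, made mainly by neurons that send axons outside the brain and spinal cord. The light subunit is also released from damaged axons and is measured in blood and cerebrospinal fluid as a marker of axonal injury, a measure of protein that RNA from the tissue does not give.

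The members differ most in length at their tails. In GENCODE M21 gene models the coding sequence was 1503 bases in Ina, 1521 in Prph, 1629 in Nefl, 2544 in Nefm and 3270 in Nefh. The tail of the heavy subunit repeats codons for lysine, serine and proline, the site at which it is phosphorylated, and a stretch of it is shown because it is what sets Nefh apart from the others. The coding motif AAGTCNCCN, searched in frame on the coding strand, occurred 34 times in Nefh, 2 times in Nefm and 0 times in Nefl, Ina and Prph, and was held by 955 of 21489 coding sequences (4.44%). In the window below, read on the minus strand at chr11:4940956-4941063 (GRCm38) and covering coding bases 1555 to 1662, the capitals mark 6 copies.
Nefh tail: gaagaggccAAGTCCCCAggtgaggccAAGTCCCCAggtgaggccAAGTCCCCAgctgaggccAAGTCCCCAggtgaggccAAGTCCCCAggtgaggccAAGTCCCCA

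In GRCm38, Nefl (ENSMUSG00000022055) lies at chr14:68083863-68089095 on the plus strand in 4 exons, and Nefm (ENSMUSG00000022054) at chr14:68082590-68124846 on the minus strand, with 3 exons in its coding transcript. A longer annotated Nefm transcript crosses Nefl on the other strand, and 1108 of the 3380 exonic bases of Nefl also lie in a Nefm exon. The libraries were stranded, but whether the counting used strand is not given in the sources used here, so reads of this stretch may be divided between the genes in a way that cannot be checked from the tables. Nefh (ENSMUSG00000020396, chr11:4938754-4948064, minus strand, 4 exons) and Prph (ENSMUSG00000023484, chr15:99055174-99058978, plus strand, 8 exons) had no window of 50 bases in common with another gene. Ina (ENSMUSG00000034336, chr19:47014698-47025327, plus strand, 3 exons) shared 12.8% of its 50-base windows with the antisense gene Nt5c2.

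Each library held 59265459 to 75932183 counts (median 63751715), and no 2 mice of a group had the same values. The tissue label was checked with transcription factors of forebrain neurons and their precursors, of which Emx1 was 6.72 to 14.1 CPM (counts scaled to a common library size, here and below by TMM), Lhx2 22.4 to 45.8 and Neurod6 32.3 to 77.4 over the 21 mice. Markers of the brainstem varied between mice. Tph2, which makes serotonin in the raphe neurons of the brainstem, was 0.54 to 2.59 CPM in 8 of the parental mice and 21.9 CPM in E2H mouse 3, while in PS19 mice it ranged from 1.21 to 29.3 CPM. The summed level of 5 monoaminergic markers was 2.72 to 33.4 CPM in E2H, 0.83 to 1.95 in E3H, 1.06 to 1.71 in E4H, 3.88 to 30.1 in PS/E2H, 3.27 to 44.7 in PS/E3H and 2.0 to 19.0 in PS/E4H mice. The 8 Hox genes of hindbrain and spinal cord summed to at most 1.69 CPM in any mouse, and the motor neuron factor Mnx1 had at most 4 counts. Neurons outside the forebrain also use neurofilament genes, so Tph2 is given beside the results it moves with. In bulk RNA, fewer cells of a type and less RNA per cell cannot be told apart.

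Per transcript length, the members kept a fixed order. Group means of FPKM (fragments counted per length of transcript and scaled for library size, so that it depends on the length used for each gene) ran from 129 to 146 for Nefl, 53.5 to 62.9 for Ina, 36.5 to 45.1 for Nefm, 23.4 to 35.0 for Nefh and 0.80 to 1.56 for Prph. In every group the order by FPKM was Nefl, Ina, Nefm, Nefh and Prph. By CPM, which is not divided by length, group means were 229 to 286 for Nefm and 188 to 224 for Ina, so Nefm came before Ina. The exons of Nefm cover 5782 bases with its longer transcript, and the length used for its FPKM is not given in the sources used here. Prph had 80 to 363 counts in a library, whereas Nefl had 27970 to 43173.

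Relative to the parental mice, the PS19 mice showed no change of any neurofilament gene that passed the test. The test was edgeR's quasi-likelihood F test with Benjamini-Hochberg adjustment over all genes tested, and a gene passed at an adjusted p under 0.05. In the fit over all 21 mice, with APOE line as a term, 0 of 5 members passed, beside 21% of 22863 genes. At an unadjusted p under 0.05 there was 1 member, Nefh, beside 32.2% of all genes, and by DESeq2 there were 0. The same held in each line, with 0 of 5 members in PS/E2H against E2H mice, 0 of 5 in PS/E3H against E3H and 0 of 5 in PS/E4H against E4H, beside 0.752%, 5.37% and 15.6% of all genes. Nefh in PS/E3H against E3H mice was the 1 member of these comparisons with an unadjusted p under 0.05, beside 10.7%, 21.4% and 30.1% of all genes in the 3 lines, and DESeq2 passed it.

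Within groups, the SD of Nefl, the filament's core subunit, was 2.71% to 7.63% of the mean CPM. It was the most even member in E2H, E3H and PS/E4H. Nefm and Ina were more even in E4H, Nefm in PS/E2H and Nefh in PS/E3H. The level of Nefl was 573, 551 and 525.8 CPM in E2H, 454, 478 and 474 in E3H and 477, 479 and 516 in E4H mice. In PS/E2H mice it was 518, 473, 495 and 522 CPM, in PS/E3H 523, 455, 446 and 455, and in PS/E4H 455, 488, 530.1 and 482. The PS/E2H mice were all below the E2H mice, a separation that 5.22% of all genes tested in that comparison had, and in the other lines the PS19 and parental mice overlapped. The difference of PS19 from parental mice was -0.043 ± 0.039 (log2 fold change ± SE, adjusted p = 0.504 by edgeR), with a 95% interval of -0.12 to 0.039. Within lines it was -0.13 ± 0.077 in E2H, -0.013 ± 0.071 in E3H and -0.0021 ± 0.068 in E4H.

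Nefm, the medium subunit, was 326, 244 and 277 CPM in E2H, 246, 259.6 and 248 in E3H and 257, 268 and 255 in E4H mice. In the PS19 groups it was 287, 286, 279 and 295 CPM with APOE2, 269, 234, 202 and 226 with APOE3, and 220.2, 232, 267 and 198 with APOE4. Mice of the PS19 and parental groups overlapped in every line, although 3 of 4 PS/E3H mice were below every E3H mouse and 3 of 4 PS/E4H mice below every E4H mouse. The difference over all mice was -0.087 ± 0.058 (95% interval -0.21 to 0.032, adjusted p = 0.323 by edgeR). In PS/E4H against E4H mice it was -0.18 ± 0.094 (adjusted p = 0.237), and without PS/E4H mouse 3, the highest of its group, it was -0.26 with an adjusted p of 0.0460.

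Ina was 238, 212 and 206 CPM in E2H, 185, 216 and 198 in E3H and 213, 209 and 203 in E4H mice. It was 215, 205, 216 and 258 CPM in PS/E2H, 221, 186, 191 and 183 in PS/E3H and 187, 182, 210.1 and 172 in PS/E4H mice. The groups overlapped in every line, and the difference over all mice was -0.047 ± 0.052 (95% interval -0.15 to 0.061, adjusted p = 0.594 by edgeR). The lowest bound of the 3 intervals over all mice, that of Nefm, was -0.21 on the log2 scale.

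The level of Nefh, the heavy subunit, was 187, 133 and 139 CPM in E2H, 93.9, 112 and 100.4 in E3H and 100.5, 91.5 and 112 in E4H mice. In PS19 mice it was 177, 140.3, 145 and 153 CPM with APOE2, 119.8, 135, 114 and 122 with APOE3, and 119, 118, 115 and 94.7 with APOE4. The PS/E3H mice were all above the E3H mice, 3 of 4 PS/E4H mice were above every E4H mouse, and PS/E2H and E2H mice overlapped. The difference was 0.25 ± 0.082 in PS/E3H against E3H mice (adjusted p = 0.105 by edgeR, 0.0332 by DESeq2), 0.14 ± 0.095 in E4H and 0.0015 ± 0.13 in E2H. Groups that did not overlap, with PS/E3H higher, were found for 10.9% of all genes tested in that comparison. Over all mice it was 0.14 ± 0.066 (adjusted p = 0.150), and without E2H mouse 1, which had the highest Nefh of all, it was 0.19 with an adjusted p of 0.0189.

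Tph2 was also at a higher level in every PS/E3H mouse than in the E3H mice. In the E3H line the 4 PS19 mice had Tph2 at 4.42, 29.3, 4.53 and 1.75 CPM against 0.57, 1.15 and 1.08 CPM in E3H mice, and the mouse with the most Tph2 was the one with the most Nefh. The other 3 PS/E3H mice did not follow that order, with 119.8, 114 and 122 CPM of Nefh at 4.42, 4.53 and 1.75 CPM of Tph2, and in E2H the mouse with 21.9 CPM of Tph2 had 139 CPM of Nefh while the one with 187 had 1.63 CPM of Tph2. With log2 Tph2 as a covariate the difference in Nefh over all mice was 0.062 ± 0.081 (adjusted p = 0.695 by edgeR), and without the 7 mice above 5 CPM of Tph2 it was 0.082 ± 0.084 (adjusted p = 0.615). The 7 mice left out were 1 of E2H, 3 of PS/E2H, 1 of PS/E3H and 2 of PS/E4H. Both settings were chosen after Tph2 had been seen, and the part of brainstem tissue in the Nefh values was not otherwise tested.

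Prph, peripherin, had the lowest level of the 5 members. It was 2.19, 2.87 and 1.95 CPM in E2H, 1.60, 1.79 and 1.81 in E3H and 2.25, 1.38 and 2.65 in E4H mice. In PS19 mice it was 5.23, 1.34, 2.21 and 4.99 CPM with APOE2, 1.91, 1.84, 1.93 and 1.29 with APOE3, and 2.10, 3.27, 2.10 and 2.11 with APOE4. PS/E2H mice 1 and 4 had the highest values of the series, and these 2 mice had Tph2 at 18.4 and 10.9 CPM, whereas PS/E3H mouse 2, with the most Tph2, had 1.84 CPM of Prph. The difference over all mice was 0.26 ± 0.20 (adjusted p = 0.412 by edgeR). It was 0.0095 with Tph2 as a covariate and -0.17 without the mice above 5 CPM, neither of which passed.

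**Figure D1:**
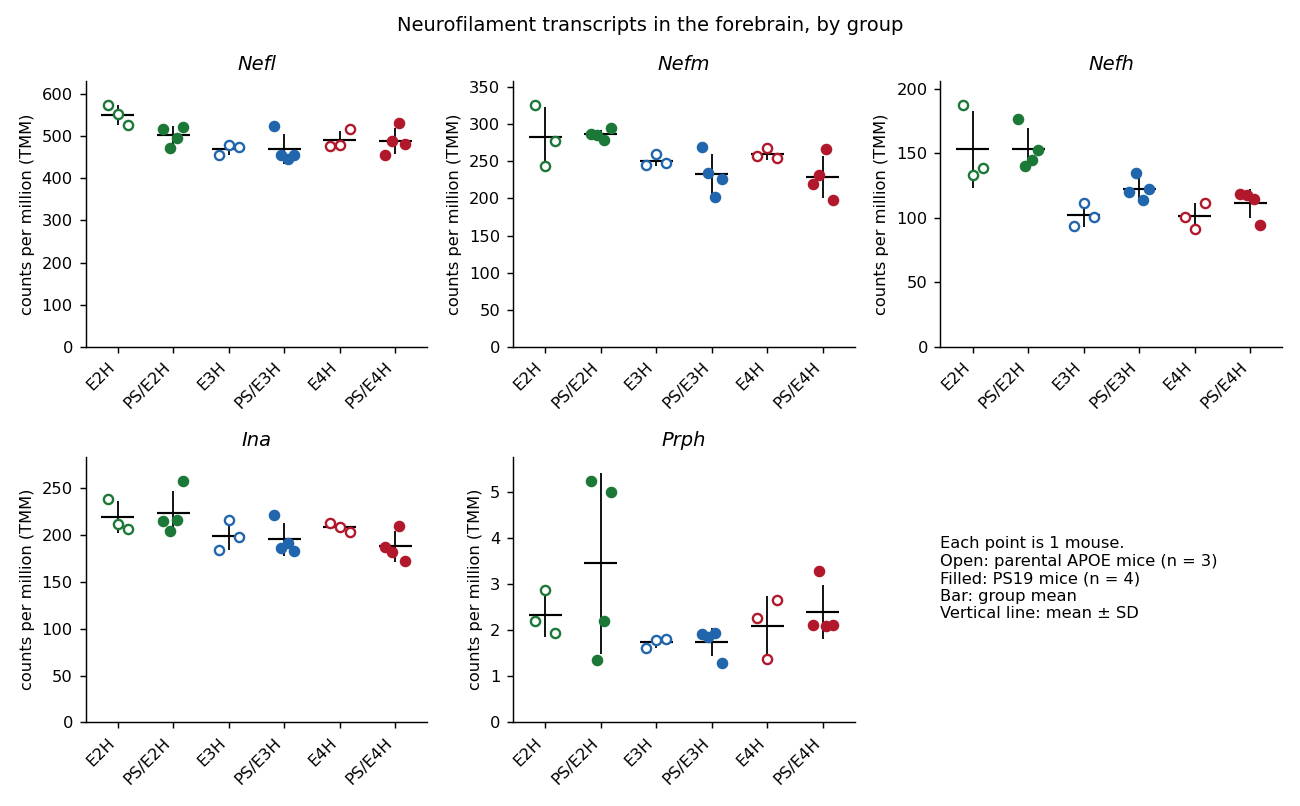
Level of each neurofilament gene in CPM (TMM scaled, vertical axes from 0) for 21 mice in 6 groups on the horizontal axis, with open points for parental mice, filled points for PS19 mice, and bars with lines for the group mean ± SD. Nefh stands higher in the E2H and PS/E2H groups (means 153 and 154 CPM) than in the other 4 groups (101.3 to 123 CPM). Parental and PS19 mice of a line overlap for Nefm and Ina, and for Nefl in the E3H and E4H lines but not in the E2H line.

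No difference of the tau effect between APOE lines was detected for a neurofilament gene. In the 3 interaction fits, each comparing the effect of tau between 2 lines, 0 of 5 members passed, beside 0% of all genes by edgeR. At an unadjusted p under 0.05 there were 0 members, beside 5.72% of all genes for E2H against E3H, 3.81% for E4H against E3H and 10.1% for E4H against E2H, and 0 members passed by DESeq2. For Nefh the tau effect in E2H differed from that in E3H by -0.24 (95% interval -0.58 to 0.093), that in E4H from that in E3H by -0.11 (-0.39 to 0.17), and that in E4H from that in E2H by 0.14 (-0.23 to 0.51). These intervals are wide beside the effects themselves.

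Between APOE genotypes, Nefh levels were higher in mice with APOE2 than with APOE3 or APOE4, with and without the tau transgene. Every E2H mouse (133 to 187 CPM) was above every E3H mouse (93.9 to 112) and E4H mouse (91.5 to 112), and every PS/E2H mouse (140.3 to 177) was above every PS/E3H mouse (114 to 135) and PS/E4H mouse (94.7 to 119). By group mean, the order was PS/E2H, E2H, PS/E3H, PS/E4H, E3H and E4H. In that order PS/E2H and E2H overlapped, E2H and PS/E3H overlapped by the lowest E2H mouse, and the groups from PS/E3H to E4H overlapped with their neighbours.

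In comparisons of 2 groups these differences did not pass. Nefh was higher by 0.59 ± 0.13 in E2H relative to E3H mice (adjusted p = 0.211 by edgeR) and differed by -0.60 ± 0.14 in E4H relative to E2H mice (adjusted p = 0.291). Among PS19 mice it was 0.34 ± 0.085 in PS/E2H relative to PS/E3H (adjusted p = 0.366) and -0.47 ± 0.097 in PS/E4H relative to PS/E2H (adjusted p = 0.158). In all 6 APOE comparisons 0 of 5 members passed, beside 0.178% of genes in E2H against E3H, 0.162% in E4H against E3H, 0.216% in E4H against E2H, 0.113% in PS/E2H against PS/E3H, 0.0197% in PS/E4H against PS/E3H and 0.119% in PS/E4H against PS/E2H. At an unadjusted p under 0.05 there were 2 members (Nefl and Nefh) in E2H against E3H and in E4H against E2H, 4 (all but Nefl) in PS/E2H against PS/E3H, 3 (Nefm, Nefh and Ina) in PS/E4H against PS/E2H, and 0 in E4H against E3H and in PS/E4H against PS/E3H. Beside them, the share of all genes at that p was 14.1%, 12.4%, 11.7%, 12.3%, 6.67% and 6.51% in the same order of comparisons. DESeq2 passed Nefh in E2H against E3H (adjusted p = 0.00376), in E4H against E2H (adjusted p = 0.00476) and in PS/E4H against PS/E2H (adjusted p = 0.0027), and the same 3 passed by edgeR when all 21 mice shared 1 fit (adjusted p = 0.0319, 0.0198 and 0.0499). Groups that did not overlap in the direction of Nefh were found for 12.7% of genes in E2H against E3H, 10.7% in E4H against E2H, 2.17% in PS/E2H against PS/E3H and 3.27% in PS/E4H against PS/E2H. Other members were separated in the same direction. They were Nefl and Prph in E2H against E3H, Nefl in E4H against E2H, and Nefm in PS/E2H against PS/E3H and in PS/E4H against PS/E2H.

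When the lines were compared over all 21 mice, with tau genotype as a term, Nefh and Nefm passed. This comparison was added after the Nefh levels had been seen, so its p-values are not independent of the choice. In the E2H lines (7 mice) relative to the E3H lines (7 mice) Nefh rose by 0.45 ± 0.080 (95% interval 0.28 to 0.62, adjusted p = 0.00468 by edgeR) and Nefm by 0.26 ± 0.070 (0.11 to 0.40, adjusted p = 0.0450). The other members had values of 0.17 ± 0.047 for Nefl (adjusted p = 0.0537), 0.18 ± 0.062 for Ina (adjusted p = 0.0942) and 0.76 ± 0.24 for Prph (adjusted p = 0.0725). Thus 2 of 5 members passed, beside 3.31% of 22863 genes, and the median of the 5 was 0.26 beside -0.0048 over all genes tested.

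Relative to the E2H lines, the E4H lines had less Nefh, by -0.53 ± 0.080 (95% interval -0.70 to -0.36, adjusted p = 0.000536 by edgeR), and 1 of 5 members passed beside 0.634% of genes. Nefm differed by -0.24 (95% interval -0.39 to -0.099, adjusted p = 0.103). Between the E4H and E3H lines 0 of 5 members passed beside 0.122% of genes, with 0 members and 5.77% of all genes at an unadjusted p under 0.05 and 0 members by DESeq2, and the value for Nefh was -0.081 (95% interval -0.25 to 0.085).

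The Nefh call between lines held when any 1 mouse was left out, with values of 0.37 to 0.48 for E2H against E3H lines and -0.56 to -0.45 for E4H against E2H lines. It held with log2 Tph2 as a covariate (0.40 ± 0.083, adjusted p = 0.0163, and -0.47 ± 0.085, adjusted p = 0.00622). Without the mice above 5 CPM of Tph2 the values were 0.52 ± 0.11 and -0.61 ± 0.11. Those left out included 3 of 4 PS/E2H mice and 1 of 3 E2H mice, so few mice of the E2H lines remained. Tph2 itself differed by 1.44 ± 0.78 between the E2H and E3H lines (adjusted p = 0.297). The Nefm call was lost in 14 of 21 fits that left out 1 mouse, with values of 0.22 to 0.30, and also without the mice above 5 CPM of Tph2 (0.24 ± 0.10).

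**Figure D2:**
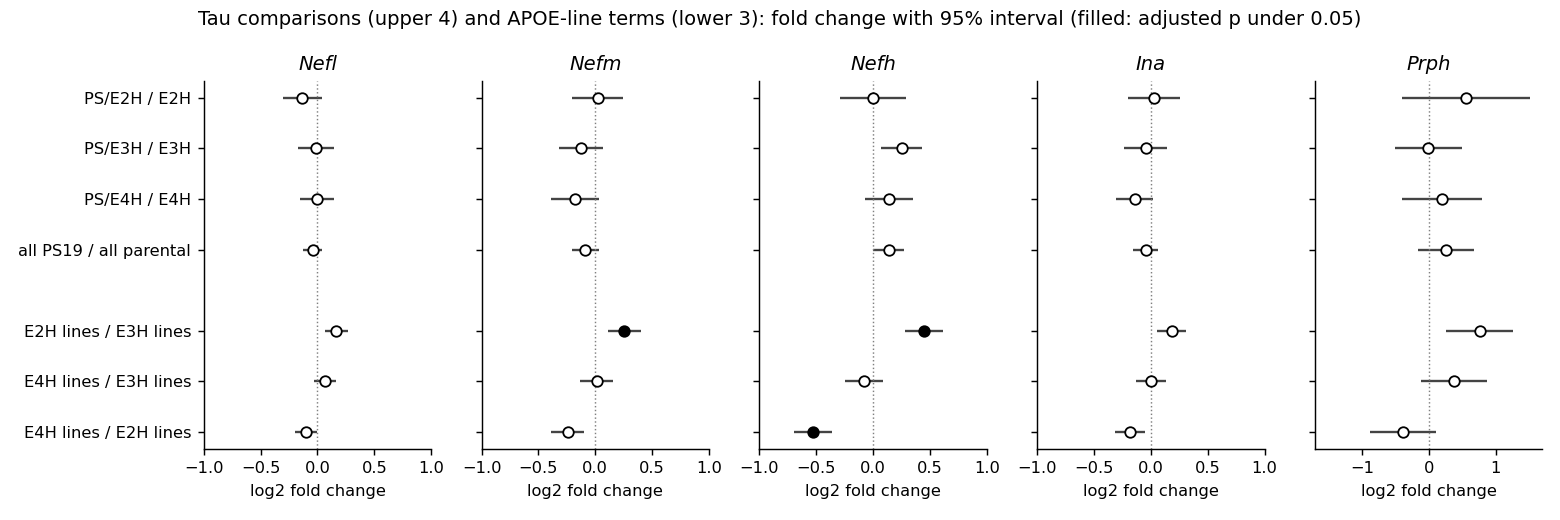
Log2 fold change (horizontal axes, wider for Prph) of each neurofilament gene with its 95% interval, for the PS19 mice of each line and of all lines against parental mice (upper rows) and for the APOE lines against each other over all 21 mice (lower rows), with filled points at an adjusted p under 0.05. The filled points are Nefh at 0.45 and Nefm at 0.26 in the E2H against the E3H lines, and Nefh at -0.53 in the E4H against the E2H lines.

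Set against the light and medium subunits, the heavy subunit differed between PS19 and parental mice in the test pooled over lines, although no line passed alone. A ratio of Nefh to Ina was not taken. The ratio of Nefh to Nefl FPKM was taken in each mouse on the log2 scale, and PS19 mice were compared with parental mice within lines by a two-sided exact permutation test over 42875 arrangements, of which the smallest possible p is 2.33e-05. The log2 ratio of Nefh to Nefl was on average -2.36 in parental and -2.17 in PS19 mice, a difference of 0.19 (exact permutation p = 0.0111, adjusted p = 0.0221 over 4 ratios). That of Nefh to Nefm was -0.65 and -0.42, a difference of 0.23 (exact permutation p = 0.00704, adjusted p = 0.0221). The ratio of Nefm to Nefl differed by -0.045 (exact permutation p = 0.450) and that of Ina to Nefl by -0.0052 (exact permutation p = 0.912).

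The ratio of Nefh to Nefm FPKM was 0.73 to 0.83 in E2H, 0.55 to 0.62 in E3H and 0.49 to 0.64 in E4H mice, and 0.71 to 0.89 in PS/E2H, 0.64 to 0.83 in PS/E3H and 0.62 to 0.78 in PS/E4H mice. The size of these ratios depends on the transcript lengths used, and with raw counts the log2 difference between PS19 and parental mice was also 0.23. The PS/E3H mice were all above the E3H mice, while PS/E2H and E2H mice had the same range in part and their mean difference was -0.016 on the log2 scale. Within lines it was 0.38 with APOE3 (exact permutation p = 0.0571, 4 against 3 mice) and 0.33 with APOE4 (exact permutation p = 0.0857), so no line passed alone, and the smallest p that 4 against 3 mice allow is 0.0286. For Nefh to Nefl the differences within lines were 0.15 with APOE2, 0.27 with APOE3 and 0.14 with APOE4. When any 1 mouse was left out the differences were 0.16 to 0.23 for Nefh to Nefl and 0.20 to 0.26 for Nefh to Nefm. With the p adjusted over 4 ratios each time, the first was lost without E2H mouse 2 (0.16, exact permutation, adjusted p = 0.0627) or E4H mouse 2 (0.17, exact permutation, adjusted p = 0.0502), and the second without E4H mouse 2 (0.20, exact permutation, adjusted p = 0.0502). Without the 7 mice above 5 CPM of Tph2, of which 3 were PS/E2H mice, the 2 ratios differed by 0.096 and 0.13, and neither passed.

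**Figure D3:**
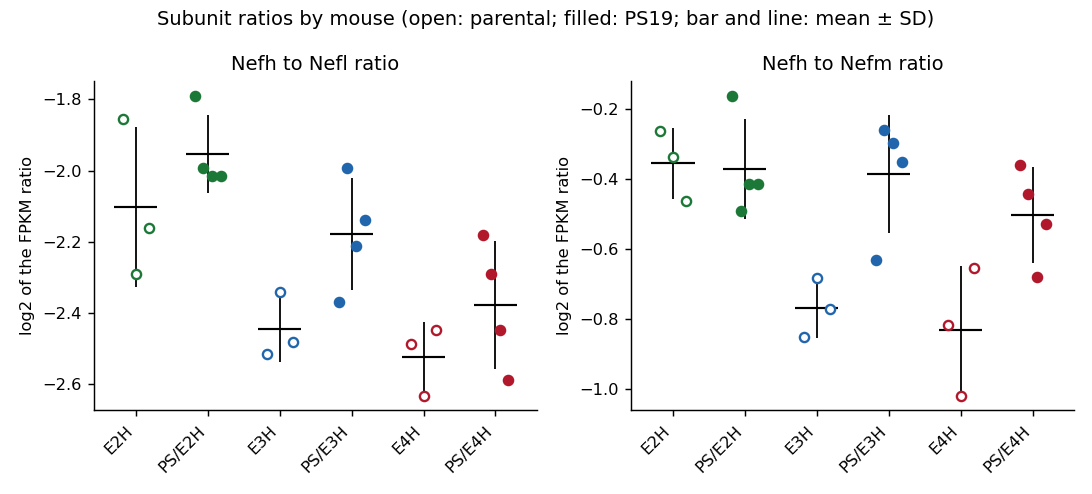
Log2 of the FPKM ratio of Nefh to Nefl (left) and of Nefh to Nefm (right) on the vertical axes, for each mouse by group on the horizontal axes, with open points for parental mice, filled points for PS19 mice, and bars with lines for the mean ± SD. The PS/E3H mice all lie above the E3H mice in the right panel and overlap with them in the left (lowest PS/E3H mouse -2.37, highest E3H mouse -2.34), and in the right panel the E2H and PS/E2H means are -0.36 and -0.37.

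**Figure D4:**
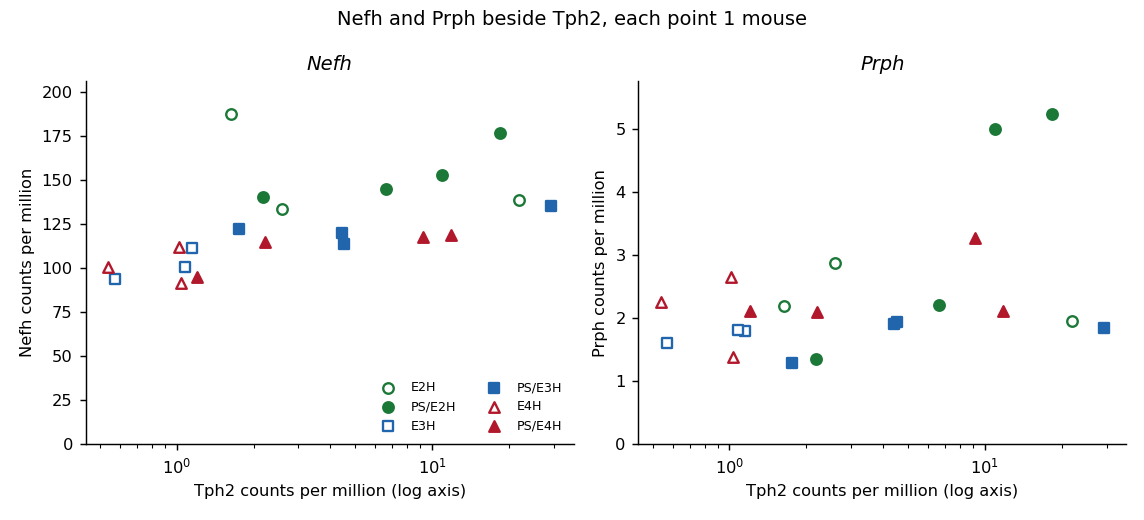
Nefh (left) and Prph (right) in CPM on the vertical axes against Tph2 in CPM on a log axis, 1 point per mouse, with open symbols for parental and filled symbols for PS19 mice and a shape for each APOE line. At Tph2 below 3 CPM the E2H mice 1 and 2 and PS/E2H mouse 2 had 133 to 187 CPM of Nefh, while the 2 highest values of Prph belong to PS/E2H mice with 18.4 and 10.9 CPM of Tph2. The part of brainstem tissue in these values was not tested.

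Among the other genes of the axonal cytoskeleton, several of microtubules fell in PS19 mice over all lines, and fewer of membrane skeleton and transport. Of all genes, 9.63% were lower and 11.4% higher. Of 15 genes of axonal microtubules and cross-linkers 5 fell and 0 rose, among them Map1b (-0.39 ± 0.066), Map1a (-0.31 ± 0.061) and Map2 (-0.19 ± 0.053), which bind microtubules, and Plec (-0.26 ± 0.080), which links filaments to each other. The list's median was -0.12 beside -0.0060 over all genes tested. Mapt, the mouse tau gene, was -0.055 ± 0.039 and did not pass (adjusted p = 0.352 by edgeR). Reads were aligned to the mouse genome, and how reads of the human tau transgene entered this value was not tested.

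Of 9 spectrin and ankyrin genes, which hold the axon membrane skeleton together, 2 fell (Sptbn4 by -0.21 ± 0.059 and Ank2 by -0.22 ± 0.064) and 0 rose, with a median of -0.12. Of 12 motor genes 2 fell, the kinesins Kif5a (-0.30 ± 0.057), which carries neurofilaments along axons, and Kif5c (-0.17 ± 0.044), and 0 rose, with a median of -0.022. Beside these lists, 9.63% of all genes were lower, and the median over all genes tested was -0.0060. Of 11 genes of neurofilament phosphorylation and turnover 1 rose, the protease gene Capn2 (0.38 ± 0.040), and 2 fell, among them Cdk5r1 (-0.21 ± 0.044), the activator of the kinase Cdk5. The phosphorylation of the proteins was not measured.

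Intermediate filament genes of glia rose in the PS19 mice. Of 8 other intermediate filament genes 2 rose, Gfap of astrocytes by 2.68 ± 0.14 and Vim by 1.67 ± 0.21, and the remaining 6, including the lamins and Nes, did not pass. Of 11 axon injury genes 4 rose, namely Atf3 (1.56 ± 0.23), Jun (0.28 ± 0.053), Sprr1a (3.38 ± 0.64) and Ecel1 (0.40 ± 0.092), and Stmn2, a growth cone gene, fell by -0.15 ± 0.042. Of 10 pan-neuronal markers 2 fell, the synaptic genes Snap25 (-0.19 ± 0.042) and Syt1 (-0.16 ± 0.045), and 0 rose.

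Of 10 genes of fast-spiking and thick-axon neurons, in which neurofilaments are abundant, Spp1 (1.72 ± 0.25), which microglia make too, and Pvalb (0.36 ± 0.089), a calcium-binding protein of fast-spiking interneurons, rose, and Scn8a (-0.22 ± 0.068), an axonal sodium channel, fell. Of 8 markers of corticospinal and deep-layer projection neurons 6 fell, among them Ldb2, Bcl11b and Tbr1, and Sulf1 rose (0.35 ± 0.10). Forebrain markers fell for 4 of 5, among them Lhx2 (-0.37 ± 0.091) and Neurod6 (-0.69 ± 0.11), while oligodendrocyte markers rose for 6 of 8, including Mbp (0.40 ± 0.069), astrocyte markers for 6 of 6 and microglia markers for 5 of 6, and 1 of 4 endothelial markers, Pecam1, rose. Of the markers of other sites, 2 of 5 monoaminergic genes rose, Slc6a4 (3.26 ± 0.99) and Tph2 (2.0 ± 0.68), as did 1 of 4 tested Hox genes and 1 of 4 tested peripheral nerve genes, the sodium channel Scn10a (1.22 ± 0.32), while 0 of 4 tested motor neuron and cholinergic genes passed. The share that these cell and tissue markers have in the neurofilament values was not tested.

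**Figure D5:**
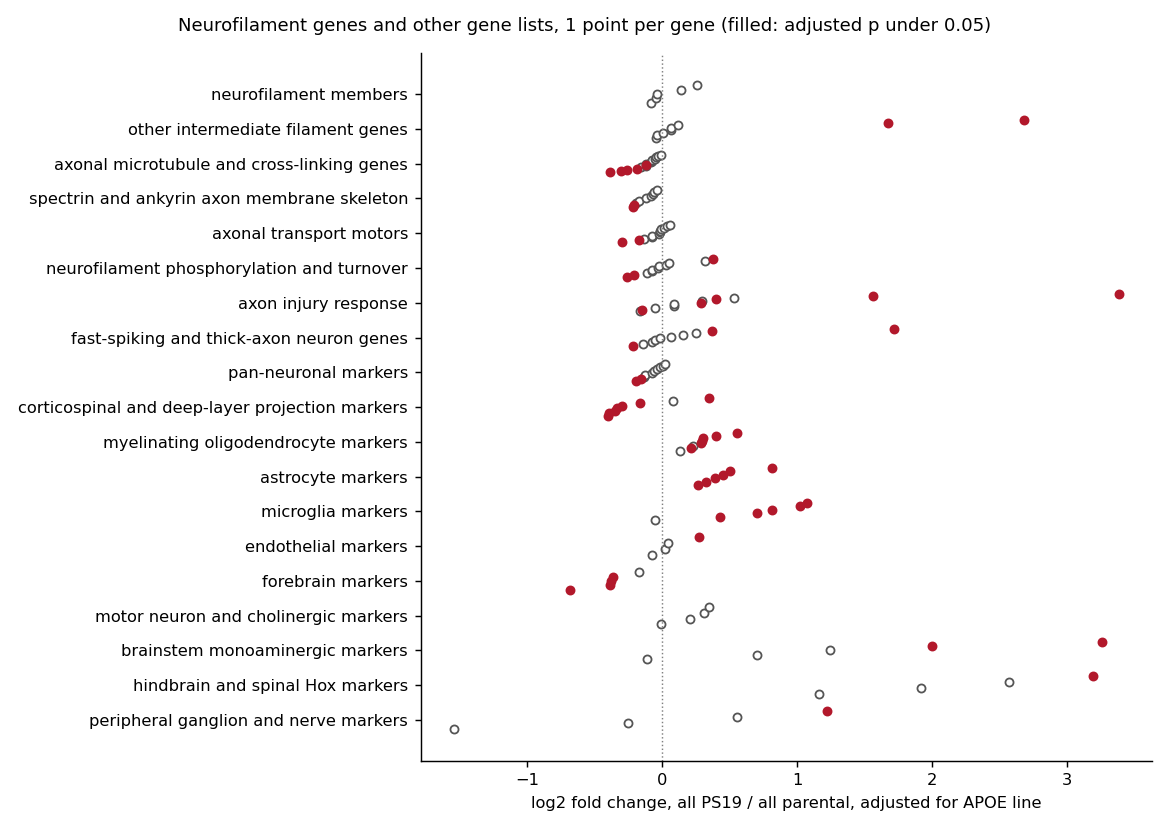
Log2 fold change between all PS19 and all parental mice, adjusted for APOE line (horizontal axis), of each tested gene of the neurofilament list and of 18 other lists (vertical axis), with filled points at an adjusted p under 0.05. The 5 neurofilament genes lie between -0.087 and 0.26 with no filled point, while Gfap and Vim reach 2.68 and 1.67 and the microtubule and motor lists have filled points only below 0.

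In the comparison of E2H with E3H lines, other genes of these lists passed beside Nefh and Nefm, where 3.31% of all genes passed. They were 2 of 10 fast-spiking and thick-axon genes, 1 of 10 pan-neuronal and 1 of 8 oligodendrocyte markers. The rest were 1 of 8 corticospinal and deep-layer markers and 1 of 11 phosphorylation and turnover genes. By name these genes were Pvalb (0.49 ± 0.11, adjusted p = 0.0231 by edgeR), Vamp1 (0.33 ± 0.073, adjusted p = 0.0232), Pcp4, Stmn3, Cdk5 and Mobp, and all were higher in the E2H lines. These genes were named after their values had been seen. Pvalb was 63.5 to 92.0 CPM in E2H, 43.1 to 47.2 in E3H, 68.2 to 88.3 in PS/E2H and 59.1 to 76.8 in PS/E3H mice, so it did not overlap between the parental lines but did so between the PS19 lines. In the E4H against the E2H lines Vamp1 (-0.35 ± 0.072, adjusted p = 0.0219) was the 1 listed gene that passed beside Nefh, where 0.634% of all genes passed.

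Over the 21 mice, the gene whose log2 CPM was most like that of Nefh, among 15773 genes with a mean of at least 1 CPM, was Vamp1, a synaptic vesicle protein of fast-firing neurons (Pearson's r = 0.90), followed by Tunar, Pglyrp1, Shox2 and Wdr25 (0.85 to 0.88). Nefm was most like Dpp6, an accessory protein of potassium channels (0.88), and then Ina (0.84), Cars2, Sez6l2 and Miga2. For Nefl these were Bbs4, Wdr45, Dnaja1, Nsg1 and Nkiras1 (0.77 to 0.79), for Ina they were Nob1, Nefm, Galnt9, Sympk and Coro2a (0.79 to 0.84), and for Prph they were Gm5586, Rps3a2, Tmprss7, Crebl2 and Gm7964 (0.76 to 0.82). After the group means were removed the genes most like Nefh were Patj, Hcn4, Ttll5, Gm45847 and Mobp (0.80 to 0.85), and Vamp1 was not among the first 5. Dpp6 was still the first for Nefm (0.89), the first for Nefl, Ina and Prph were Slc35f3, Smg5 and Lrrn1 (0.83 to 0.86), and Gm5586 and Rps3a2 were again among the first 5 for Prph.

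Among the members, Nefm and Ina went together most closely (r = 0.84, and 0.69 after the group means were removed), and Nefm and Prph least (0.23 and -0.027). Nefh went with Nefl at 0.55, which was 0.37 after the group means were removed. These correlations are descriptions over mice that share groups, libraries and the differences in brainstem markers given above.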

How the data were processed

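RNA was extracted from frozen, pulverized forebrain of 21 mice, made into stranded mRNA libraries and sequenced as paired reads. The authors trimmed reads with Cutadapt, aligned them with HISAT2 to the Ensembl mouse genome (GRCm38.p5 in the submitters' processing notes) and quantified them with StringTie, gffcompare and ballgown, with versions not given in the sources used here. The authors deposited counts, which are whole numbers per gene with no normalization, and FPKM values, which are scaled for transcript length and library size. Their own lists came from DESeq2, with limits of 0.05 on the false discovery rate and 2 on the fold change.

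From the counts, edgeR 4.0.16 (R 4.3.3) was used with TMM normalization, filterByExpr (minimum count of 10, minimum total of 15) and the quasi-likelihood F test, over the mice of each comparison of 2 groups, over the 4 groups of each interaction, and over all 21 mice with APOE line and tau genotype as terms. P-values were adjusted over all genes tested. The SE is the absolute log2 fold change divided by the square root of F. CPM used TMM library sizes over all mice. Subunit ratios used FPKM without a pseudocount and exact permutation tests, adjusted over 4 ratios. Alternatives were DESeq2 1.42.0, its size factors in edgeR, no filter, limma 3.58.1 on log2(FPKM + 1) and log2(FPKM + 0.1) with a mean FPKM of at least 0.1, a replicate block, all 21 mice in 1 fit, a fold limit of 2, and leaving out each mouse. The Tph2 settings and the comparisons of lines over all mice were added after the data were seen. The edgeR fits and the permutation test of the ratios were tested on simulated data.

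Each mouse was placed in its group by its label, and 0 columns were left unmapped. The replicate numbers did not pair the mice: over 30 pairs of mice with the same number, deviations from the group means correlated at -0.11 to 0.072. Symbols and positions are those of GENCODE M21 on GRCm38, which named 55141 of 55401 genes. Named genes were the 5 members, 5 genes for likeness to each member and, for most of the 19 lists, at most 4 genes with the smallest adjusted p over all mice that passed. In the axon injury list every gene that passed was named. Genes that passed between APOE lines, and some others such as Mapt and Mnx1, were named outside that rule. The members and lists were chosen with earlier results of these data known. Libraries held 59265459 to 75932183 counts, and the spread between mice was estimated from 3 or 4 mice per group. Protein sequences were not used here, and some listed genes and sequences are not reported here.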

Additional observations from a re-analysis of the deposited data

Results flagged for a closer look

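The levels and ratios of the members in each PS19 group gave 27 sets of 4 values. In 5 sets a mouse stood far from the others of its group. This was by Dixon's test of the gap to the nearest mouse against the group's whole range, at the 95% level. Chance gives this in about 1 of 20 independent sets. These sets are not independent, since they come from the same mice and the ratios are built from the levels. In PS/E4H, mouse 4 had 94.7 CPM of Nefh, below the others by 0.84 of the range. In PS/E3H, mouse 1 had 523 CPM of Nefl, above the others by 0.88 of the range, and mouse 4 had 1.29 CPM of Prph, below them by 0.87 of the range. In PS/E4H, mouse 2 had 3.27 CPM of Prph, above the others by 0.99 of the range. In PS/E2H, mouse 1 had a log2 ratio of Nefh to Nefl of -1.79, above the others by 0.90 of the range. That mouse also had 18.4 CPM of Tph2, the most of its group, and the part of brainstem tissue in its ratio was not tested. No member's tau effect differed between lines by the interaction test, and no member moved in opposite directions in all mice of 2 lines.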

How the results depend on the processing

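Of 330 values of single members given or plotted, under settings other than leaving out a mouse, 301 kept their direction and side of the threshold, 10 gained a pass, 6 lost one and 13 changed sign, none of the last beyond 0.17 on the log2 scale and none past the threshold. The count of members that passed went from 0 to 1 (Nefh) by DESeq2 and with all 21 mice in 1 fit in E2H against E3H, E4H against E2H and PS/E4H against PS/E2H, and by DESeq2 in PS/E3H against E3H. In E2H against E3H lines it went from 2 to 4 by DESeq2, to 1 with DESeq2 size factors, no filter, limma, the replicate block (Nefh kept) or without mice above 5 CPM of Tph2, and to 0 with a fold limit of 2. In E4H against E2H lines it went from 1 to 2 by DESeq2 and to 0 with the fold limit. The replicate block changed no other call. Causes were not tested.

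Leaving out 1 mouse gave 1 to 4 members in E2H against E3H lines (4 without PS/E2H mouse 3), 0 to 1 in PS/E4H against E4H, 0 to 1 over all PS19 mice and no change of count elsewhere. Among the values given in the text or plotted, those that changed sign when a mouse was left out, none of which passed, were in PS/E2H against E2H Nefm (-0.066 to 0.14), Nefh (-0.080 to 0.17) and Ina (-0.052 to 0.093), in PS/E3H against E3H Nefl (-0.067 to 0.0093), Ina (-0.11 to 0.017) and Prph (-0.063 to 0.11), in PS/E4H against E4H Nefl (-0.040 to 0.038) and Prph (-0.020 to 0.41), in E4H against E3H lines Nefm (-0.023 to 0.054) and Ina (-0.025 to 0.033), the tau effect on Nefh in E4H relative to that in E2H (-0.029 to 0.22), and the ratio of Ina to Nefl (-0.023 to 0.0094).

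The replicate block turned Ina in PS/E2H against E2H to -0.049, Nefl to 0.00057 and Prph to 0.11 in PS/E3H against E3H, and Nefl in PS/E4H against E4H to 0.0060. With all 21 mice in 1 fit Prph in PS/E3H against E3H was 0.0018 and Nefl in PS/E4H against E4H was 0.0036. With Tph2 as a covariate Nefl, Nefh and Prph in PS/E4H against E4H were 0.051, -0.032 and -0.015. In E4H against E3H lines Nefm was -0.014 and -0.015 with limma (pseudocount 1 and 0.1), and Ina was 0.0094 without the mice above 5 CPM of Tph2, where Prph in all PS19 against parental mice was -0.17.

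Within the lines with APOE2, APOE3 and APOE4 alone, the log2 ratio of Nefh to Nefl differed by 0.15, 0.27 and 0.14 and that of Nefh to Nefm by -0.016, 0.38 and 0.33, none of which passed, and without the mice above 5 CPM of Tph2 they differed by 0.096 and 0.13. Leaving out 1 mouse gave 0.16 to 0.23 and 0.20 to 0.26, of which 19 and 20 of 21 fits passed. In the E2H line alone the ratios of Nefm and Ina to Nefl both differed by 0.16, against negative differences over all lines.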
